A study of Mus musculus with 4 samples.

Results

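MHC class II high macrophages of injured mouse muscle were examined at day 4 post-injury (dpi4). They were picked by measured transcript counts, and no cluster label entered the choice. A cell barcode was a member if it held at least 500 genes, had less than 10% of its unique transcripts (UMIs) from mitochondrial genes, and carried at least 5 C1q UMIs (C1qa, C1qb and C1qc) and at least 100 MHC class II UMIs (Cd74, H2-Aa, H2-Ab1 and H2-Eb1) per 10000. It also had no Cd209a UMI, fewer than 5 Gpnmb and fewer than 5 Slc40a1 UMIs per 10000, fewer than 3 UMIs of Iigp1, Ifit2 and Ifit3 per 10000, and did not hold Mki67 together with Top2a. This gave 367 cells in the control library and 203 in the KO library, 570 of the 9721 barcodes at dpi4 and of the 20500 barcodes of the whole series.

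The study compared mice that lack Bach1 in myeloid cells with littermates that keep it. Controls carried Bach1 fl/fl alone, and KO mice carried Bach1 fl/fl with Cre under the Lyz2 promoter, which is active in monocytes, macrophages and neutrophils. All were male mice on a C57BL/6J background, 8 to 12 weeks old, and every tibialis anterior was injured with cardiotoxin, a snake toxin that kills muscle fibers while the muscle can still regrow. CD45+ cells, the leukocytes, were enriched with magnetic beads at dpi2 or dpi4 and sequenced as single cells, with 1 library for each of the 4 groups. There was therefore no replicate of any group, no test was made, and the intervals given cover counting error only.

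MHC class II molecules are surface proteins that show peptides from engulfed material to CD4+ T cells. An alpha and a beta chain are assembled on the invariant chain (Cd74), whose remnant is later exchanged for a peptide with the help of the H2-DM proteins, and the whole gene set is switched on by the coactivator CIITA. In injured muscle, monocytes enter from the blood and become macrophages, some of which carry much MHC class II, and BACH1 is a heme-binding repressor of genes for heme breakdown, iron storage and antioxidant defense.

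CIITA binds no DNA itself and acts through factors that sit on short promoter elements called the X and Y boxes. The promoters of 4 class II genes that hold the Y box core are shown, chosen for that core, to show where these elements lie, and none of this sequence was used to pick the cells. Each is a 61-base window from RefSeq on GRCm38.p6, written 5′ to 3′ along the gene's strand, with the Y box core TGATTGG and, where it is found, the X box core GATGATGC in capitals. The windows lie at chr17:34287853-34287913 on the minus strand (H2-Aa, a class II alpha chain), chr17:34305766-34305826 on the plus strand (H2-Eb1, a beta chain), chr17:34153088-34153148 on the plus strand (H2-DMb1) and chr17:34145117-34145177 on the plus strand (H2-DMb2, both beta chains of H2-DM).
H2-Aa: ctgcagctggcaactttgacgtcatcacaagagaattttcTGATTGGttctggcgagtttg
H2-Eb1: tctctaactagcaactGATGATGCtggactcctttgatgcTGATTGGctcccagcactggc
H2-DMb1: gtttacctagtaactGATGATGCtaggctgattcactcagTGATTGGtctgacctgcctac
H2-DMb2: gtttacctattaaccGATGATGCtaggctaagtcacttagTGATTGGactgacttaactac

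Counted from the RefSeq start on which each promoter is built, the Y core began 50 bases before that of H2-Aa, 61 before H2-Eb1, 63 before H2-DMb1 and 92 before H2-DMb2. In the GENCODE gene records H2-DMb1 and H2-DMb2 begin further upstream than these starts, ahead of the windows shown. The X core began 24 bases ahead of the Y core in H2-Eb1 and 25 bases ahead in H2-DMb1 and H2-DMb2, so that 3 promoters shared the same layout. Searched on either strand, the Y core was present in 2568 of 32851 mouse promoters of 300 bases (7.82%), the X core in 231 (0.703%) and both in 16 (0.0487%). H2-Eb2, H2-Oa and H2-Ob, further class II genes of the list, held the Y core without the X core in these letters. H2-DMa and Lgmn, each with promoters at 2 starts, and Ctss and Ifi30 held neither, so the X core was found in 3 of the list genes searched. H2-Ab1, Cd74, Ciita and March1 were not searched.

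The values behind the choice were as follows and carry no test. MHC class II UMIs per 10000 had a median of 235 in the control members and 230 in the KO members, with maxima of 792 and 690. The nearest member stood at 100.4 in the control library and 100.02 in the KO library, and the nearest excluded macrophage that passed every other gate at 99.6 and 99.1. Within 10 units of the threshold lay 16 control members and 12 KO members on the inner side, against 18 and 7 cells on the outer side. Cells thus lay on both sides close to the threshold, and members are a range cut from a measured value.

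**Figure D1:**
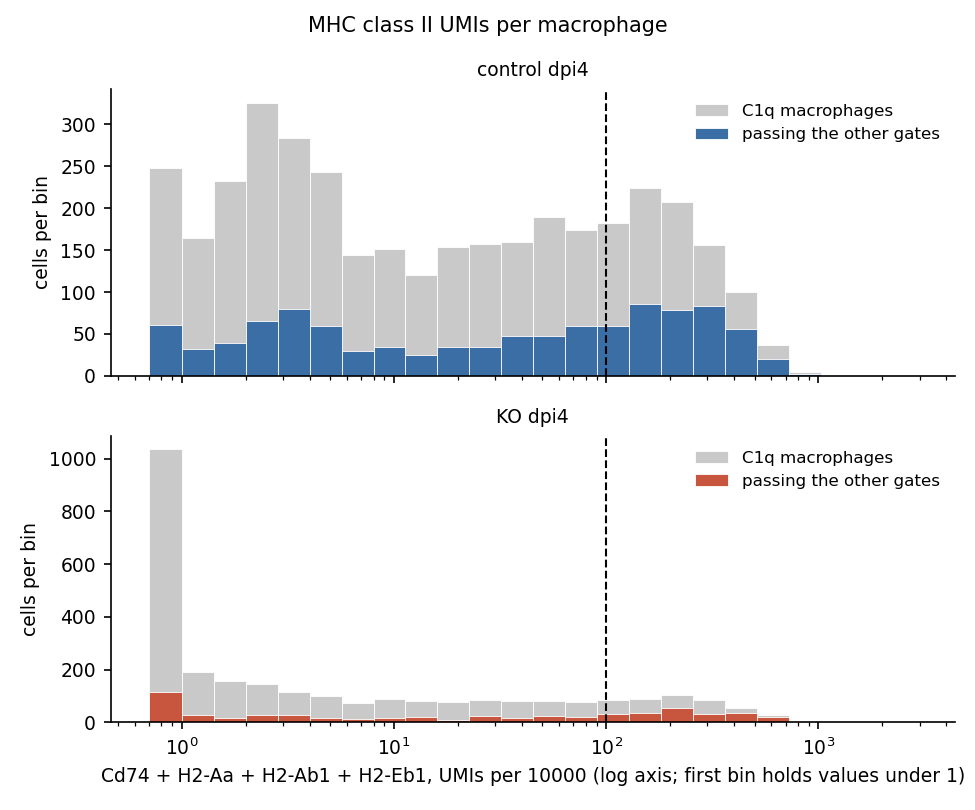
MHC class II UMIs per 10000 UMIs (log axis) of C1q macrophages in the control (upper) and KO (lower) library at dpi4, with cells per bin on the vertical axis and values under 1 in the first bin. Grey bars are all C1q macrophages, colored bars those that pass every other gate, and the dashed line is the threshold of 100, to the right of which the 367 and 203 members lie with no gap at the line.

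Cells that passed every gate but held fewer than 100 MHC class II UMIs per 10000 served as the comparison set and are called MHC II low macrophages. There were 665 of them in the control library and 379 in the KO library, with a median of 5.54 and 2.98 MHC class II UMIs per 10000. Members and MHC II low macrophages were sequenced to similar depth, with medians of 12574 and 12598 UMIs per cell in the control library and 11105 and 10158 in the KO library. Dendritic cells, defined by a Cd209a UMI, at least 100 MHC class II and fewer than 5 C1q UMIs per 10000, had a median of 514 and 484 MHC class II UMIs per 10000 (154 and 185 cells), above the members. The 4 libraries held 4177 to 6602 barcodes and 57010520 to 80228489 UMIs, with medians of 10336.5 to 13622 UMIs per barcode. At dpi4 15.4% of control and 19.9% of KO barcodes failed the mitochondrial limit. The control and KO dpi4 libraries shared 2 barcodes, none of them from a member.

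Members were a small part of the macrophages and were scarcer in the KO library at dpi4. They made up 10.0% (95% exact interval 9.08 to 11.1) of the 3658 C1q macrophages in the control library. They made up 7.13% (6.21 to 8.14) of 2846 in the KO library, a difference of -2.90 percentage points (-4.27 to -1.51). At dpi2 the same gates gave 46 of 2252 cells (2.04%) in the control library and 62 of 1164 (5.33%) in the KO library, a difference in the other direction of 3.28 points (1.89 to 4.83).

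The lower KO share at dpi4 moved with the gates on other states. With the MHC class II gate alone, 849 control macrophages (23.2%) and 426 KO macrophages (14.97%) passed, a difference of -8.24 points (-10.1 to -6.31). Of the macrophages under the MHC class II gate, 4.59% of control cells and 50.7% of KO cells failed the gate on Slc40a1, the iron exporter ferroportin, and 64.8% and 59.2% failed that on Gpnmb. Of the macrophages above the gate, 0.589% and 13.6% failed on Slc40a1 and 33.1% and 19.7% on Gpnmb, so these gates took different shares from the 2 libraries. Counted among members and MHC II low macrophages only, the share was 35.6% in the control and 34.9% in the KO library, a difference of -0.68 points (-5.59 to 4.29). With the mitochondrial limit at 5% the shares were 11.0% and 10.2%, a difference of -0.83 points (-2.86 to 1.24). Of all barcodes that passed the quality limits, members were 8.49% in the control and 5.75% in the KO library, a difference of -2.74 points (-3.89 to -1.59). The size of the KO difference therefore moved with the gates and with the cells counted against, and with 1 library per group, genotype and preparation cannot be told apart.

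Outside the 4 genes of the rule, Ciita, H2-DMa and H2-DMb1 were higher in members in both libraries. Levels are given as CPM, counts summed over the cells of a set and scaled to a common total, and a gene counted as higher or lower only with a ratio of 2-fold or more, an interval that did not include 1, and 50 or more UMIs over both sets. Of 9529 genes compared in the control library 88 were higher (0.923%) and 269 lower (2.82%), and of 8201 in the KO library 77 were higher (0.939%) and 339 lower (4.13%). In both libraries 36 of 8176 genes were higher (0.44%) and 111 lower (1.36%). The median gene stood at -0.12 (control) and -0.10 (KO) on the log2 scale, so ratios near 0 are slightly above the bulk of genes. TMM scaling, which centers the bulk, moves every ratio up by 0.11 and 0.12.

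Of the genes for MHC class II presentation not used by the rule, 7 were compared in both libraries, and 3 of these were higher in both, against the background of 0.44%. Ciita, the coactivator, was at 67.0 CPM in control members and 10.8 in control MHC II low macrophages, a log2 ratio of 2.63 (2.29 to 2.98). In the KO library it was at 70.3 against 4.8 CPM, a log2 ratio of 3.87 (3.20 to 4.62). The member levels lay close together, and the levels in MHC II low macrophages were low in both libraries. H2-DMb1 was at 424 against 93.6 CPM in the control library (2.18 on the log2 scale) and at 486 against 64.3 CPM in the KO library (2.92). H2-DMa, the alpha chain of the same peptide editor, was at 554 against 186 CPM (1.57) and at 539 against 149 CPM (1.86).

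The proteases and the reductase that prepare peptides did not follow. Ctss, the cathepsin that trims the invariant chain, had log2 ratios of 0.21 (control) and 0.30 (KO). Ifi30, a lysosomal thiol reductase, had 0.44 and 0.67, and Lgmn, an asparagine endopeptidase, had -0.50 and -0.69. March1, the ligase that removes class II molecules from the surface, had 0.04 and 0.41. H2-DMb2 was higher in the control library at 13.6 against 2.6 CPM (2.41), while its KO pair held fewer than 50 UMIs, as did H2-Eb2, H2-Oa and H2-Ob in both libraries. Over the 7 genes compared in both libraries the middle value was that of Ifi30 each time, and with H2-DMb2, compared in the control library only, the control median was 1.01.

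The difference in Ciita was seen across cells and not in a few of them. After every cell was thinned to 2000 UMIs, 11.51% of 365 control members and 10.8% of 195 KO members kept a Ciita UMI (49.3% and 44.3% before thinning). In MHC II low macrophages it was 2.22% and 1.11% (10.8% and 4.22% before). T and NK cells should have little Ciita and were shallower, at medians of 6541 and 6207 UMIs. Of 55 and 94 thinned T and NK cells, few for a background, 3.64% and 2.13% kept a Ciita UMI. The shares of the MHC II low macrophages were no higher, and whether their Ciita UMIs are background was not tested.

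Tmem176b, the fourth marker given for these cells and no part of the rule, was higher with its neighbor Tmem176a, which encodes a related cation channel of endosomes. Tmem176b was at 625 against 293 CPM in the control library (log2 ratio 1.09, 1.02 to 1.17) and at 517 against 250.1 in the KO library (1.05). Tmem176a was at 473 against 185 CPM (1.35) and at 335 against 150.4 CPM (1.15). The genes overlap on opposite strands of chromosome 6 (mm10), Tmem176b at chr6:48833818-48841496 on the minus strand and Tmem176a at chr6:48840919-48847071 on the plus strand, so reads in the shared stretch can be assigned only by strand.

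**Figure D2:**
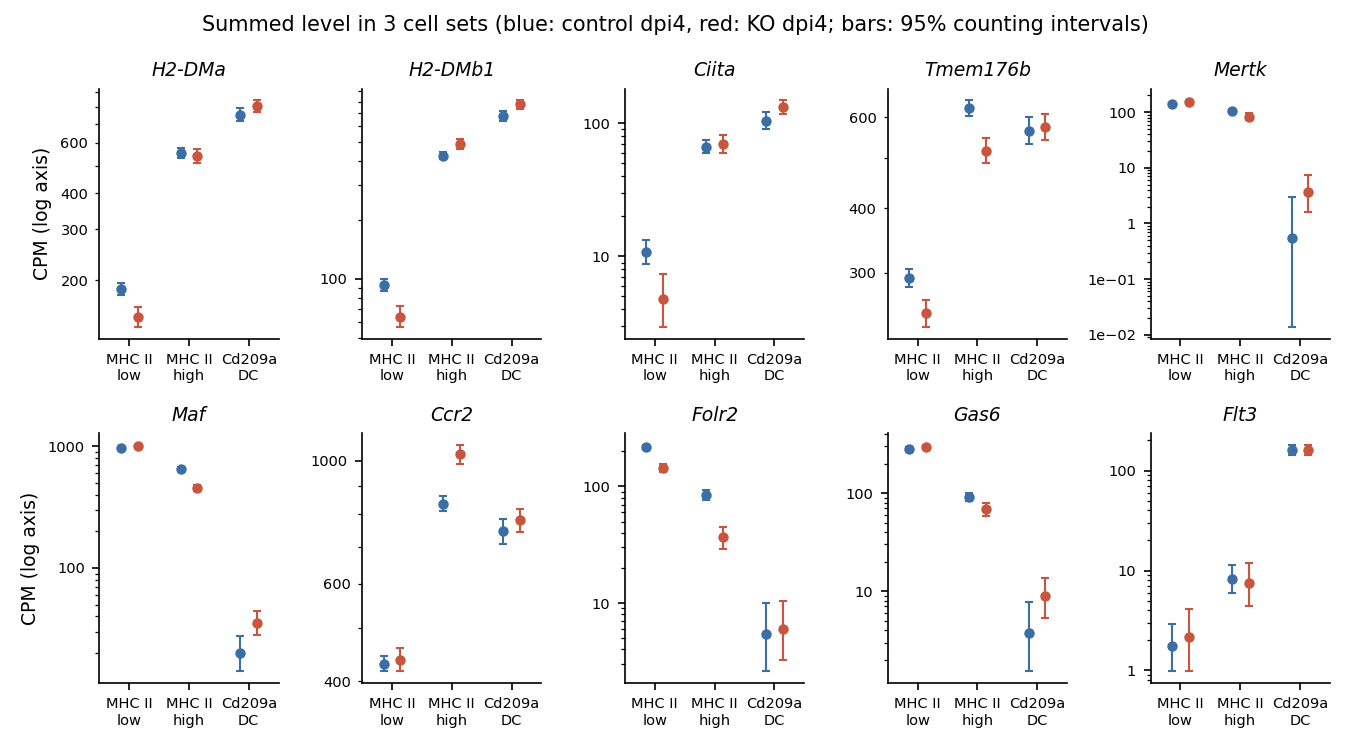
Levels (CPM, log axes) of 10 genes in MHC II low macrophages, members (MHC II high) and Cd209a dendritic cells at dpi4, 1 point per set for the control (blue) and KO (red) library with exact 95% counting intervals. For Ciita, H2-DMa, H2-DMb1 and Tmem176b members stand above MHC II low macrophages in both libraries, while Mertk and Maf separate them from dendritic cells.

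Members stood apart from dendritic cells for several defining markers of either type, but not for every gene of the dendritic cell list. Mertk, a receptor for dying cells, was at 106 CPM in control members and 83.2 in KO members, against 0.5 and 3.7 CPM in the dendritic cells. Flt3, the growth factor receptor of dendritic cells, was at 8.3 and 7.5 CPM in members against 162 and 161 in dendritic cells. A UMI of Flt3 or of Zbtb46, a dendritic cell transcription factor, was found in 29 control members (7.90%) and 14 KO members (6.90%), in 79.2% and 73.0% of dendritic cells and in 2.11% and 4.22% of MHC II low macrophages. The members were thus far below dendritic cells for these markers, with a small share of cells that hold one. Other list genes lay closer, with log2 ratios of members over dendritic cells of -0.26 and -0.24 for Batf3, whose intervals include 0, and of -1.16 and -0.22 for Itgax. Fscn1, an actin bundler, stood above dendritic cells in the control library (1.61, 0.81 to 2.53) and below in the KO library (-1.34).

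Some genes tied to dendritic cells were nevertheless higher in members than in MHC II low macrophages. Of 7 list genes compared in both libraries, 3 were higher in both, against 0.44% of all genes. Itgax, which encodes CD11c, was at 87.0 against 33.8 CPM in the control library (1.36) and at 164 against 47.9 in the KO library (1.78). Batf3, a transcription factor, had log2 ratios of 1.26 and 1.73, and Dpp4, a surface peptidase, 2.33 and 2.60. Ccr7, the receptor for migration to lymph nodes, was at 24.0 against 0.3 CPM in the control library and at 3.3 against 18.1 in the KO library. Its direction differed between libraries, and 1 cell held 51.7% of the UMIs of control members and another 65.3% of those of KO MHC II low macrophages.

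The tissue-resident macrophage genes were mostly lower in members. Of 9 macrophage identity genes 0 passed in both libraries, beside 0.44% of all genes higher and 1.36% lower, with medians of -0.23 (control) and -0.40 (KO), though Maf, a macrophage transcription factor, was lower in KO members (458 against 1005 CPM, -1.13). Of 7 resident genes compared in both libraries, 5 were lower in both, against the background of 1.36%, and none was above 0. Folr2, a folate receptor, was at 85.2 against 219 CPM in the control library (-1.36) and at 36.6 against 145 in the KO library (-1.99). Cbr2, a carbonyl reductase, had log2 ratios of -2.23 and -2.64, Gas6, the ligand of Mertk and Axl, -1.63 and -2.11, and F13a1, a clotting factor subunit, -1.17 and -1.61. The genes Lyve1, Timd4 and Vsig4 were too sparse to compare in both libraries.

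Of 7 monocyte genes compared in both libraries none passed in both, beside the same shares of all genes, and their directions were mixed. Ccr2, the receptor that brings monocytes into tissue, was at 836 CPM in control members and 431 in MHC II low macrophages (0.96), and at 1028 and 438 CPM in the KO library (1.23), so it passed 2-fold in the KO library only. Ly6c2, the marker of inflammatory monocytes, had 0.29 and 0.78, and Plac8 had 0.05 and 0.42. Vcan, a matrix proteoglycan, had -0.53 and -1.603. Mrc1, a mannose receptor of repair-type macrophages, went the other way, at 370 against 785 CPM (-1.08) and 362 against 718 CPM (-0.99). After thinning to 2000 UMIs, 23.8% of control members and 33.8% of KO members held UMIs of both Ccr2 and Mrc1.

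Among single genes held by at least 10% of cells, the higher ones in members beside Ciita and H2-DM included several myeloid surface receptors. Clec4b1, a C-type lectin receptor, was at 101 against 19.8 CPM in the control library (2.35) and at 127 against 24.3 in the KO library (2.38). Mgl2, a lectin of antigen-presenting cells, had log2 ratios of 1.603 and 2.10, and Slamf8 and Slamf9, receptors of the SLAM family, had 1.99 and 1.54 and 1.16 and 1.23. Tnip3, a binding partner of the NF-κB inhibitor A20, had 1.79 and 2.22. Plbd1, a phospholipase-like lysosomal protein, was at 193 against 53.8 CPM (1.84) and 263 against 90.7 CPM (1.54), and was found in 29.0% and 34.9% of thinned members against 11.6% and 15.8% of MHC II low macrophages. Lsr, Sh2d1b1, Olfm1, Rnase6 and Napsa also passed, with log2 ratios between 1.11 and 1.69 (control) and between 1.55 and 1.79 (KO). Most of these genes stood higher still in the Cd209a dendritic cells. Members over dendritic cells had log2 ratios of -1.33 and -0.69 for Clec4b1, -2.52 and -2.62 for Mgl2, and -2.25 and -1.64 for Tnip3. Plbd1 had -1.65 and -1.11, Rnase6 -2.29 and -2.14, and Napsa -2.22 and -2.15. Slamf8 and Sh2d1b1 lay closer, at -0.17 and 0.31 and at -0.48 and 0.16.

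The largest ratio of all belonged to few cells. Retnla, a secreted product of alternatively activated macrophages, was at 426 against 2.9 CPM in the control library (7.19) and 185 against 1.2 CPM in the KO library (7.27). It was found in 19 control members and 9 KO members, and 1 cell carried 55.8% of the control member UMIs. Ear2, a ribonuclease, was likewise held by 18 and 14 members. Of the 36 genes higher in both libraries, 29 had a UMI in at least 10% of members, and of the 15 with the largest ratios 12 did.

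The genes lower in members in both libraries included secreted and scavenger products of macrophages. Ccl8, a chemokine, was at 78.6 CPM in control members and 444 in MHC II low macrophages (-2.50), and at 42.0 against 202 in the KO library (-2.26). Ccl7, another chemokine for monocytes, had -2.80 and -1.49, and Pf4, platelet factor 4, which macrophages also make, had -1.54 and -1.96. Stab1, a scavenger receptor, was at 214 against 583 CPM (-1.45) and 153 against 533 CPM (-1.80). Fabp4, a fatty acid carrier, had -2.16 and -2.93. Hmox1, the heme-degrading enzyme, was lower in members of both libraries (193 against 445 CPM, -1.21, and 2234 against 4975 CPM, -1.16), as was Tfrc, the transferrin receptor (-1.71 and -1.08).

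The 10 genes with the largest drop were instead, except G0s2, genes known from other cell types. Of the 10, 0 reached 10% of MHC II low cells in both libraries. They were the endothelial and mural genes Ptprb, Gpihbp1, Adgrf5, Rgs5, Col4a1, Ly6c1, Ramp2 and Egfl7, the neutrophil gene S100a9 and the lipolysis inhibitor G0s2. S100a9 was at 3.3 against 310 CPM in the control library and 1.7 against 72.9 in the KO library. Rgs5, a pericyte gene, was at 1.2 against 32.2 CPM and 0.4 against 90.01 CPM. Of the 111 genes lower in both libraries, 44 were held by at least 10% of cells. The summed neutrophil markers were at 54.0 CPM in control and 72.8 in KO members against 692 and 194 in MHC II low macrophages. S100a8 gave 4.3 CPM of the control and 24.5 CPM of the KO member sum, the latter nearly all in a single cell. At least 5 UMIs of the muscle, fibroblast, endothelial, T, NK and neutrophil lists were held by 19.9% and 5.42% of members against 24.96% and 13.5%. Without such cells, an alternative chosen after seeing the data, 60 genes were lower in both libraries, and the part of these transcripts in single genes was not tested.

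Other lists gave few genes past the size rule in both libraries, where 0.44% of all genes were higher and 1.36% lower. None of 9 genes for MHC class I presentation, of 7 co-stimulatory ligands, of 18 transcription factors or of 9 immediate early and heat shock genes passed in both libraries. Cd86, a ligand for T-cell activation, had log2 ratios of 0.11 and 0.06, and Irf8 and Spi1, myeloid transcription factors, had 0.01 and -0.09 and 0.07 and 0.39. Of 13 inflammatory genes compared in both libraries none passed in both, and Il1b had 0.22 and 0.77. Of 8 interferon-gamma genes 1 passed, Cxcl9, at 7.6 against 2.8 CPM and 45.8 against 4.6 CPM. It rested on 12 and 9 members, with 78.2% of the KO UMIs in 1 cell. Of 14 lipid and repair genes 2 were lower in both, and of 15 heme and iron genes 2. Of 11 chemokines 3 were lower in both and none higher.

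The remaining lists were as follows, beside 0.44% of all genes higher and 1.36% lower in both libraries. Of 9 lysosomal proteases and cystatin 0 passed in both libraries, although Ctsd, the aspartic cathepsin, was at 1441 against 2879 CPM and 2035 against 4355 CPM (-0.998 and -1.10). Of 7 phagocytic receptors 1 was lower in both (Stab1), while Axl, a receptor for dying cells, was at 239 against 110 CPM in the control library (1.12) and 314 against 226 in the KO library (0.48). Of 10 alternative activation genes 2 were higher in both (Mgl2 and Retnla), of 10 type I interferon genes 0 passed, and of 4 cell cycle genes outside the rule 0 passed. T-cell, NK-cell and B-cell markers summed to 2.5, 11.0 and 31.0 CPM in control members and 1.2, 1.7 and 30.0 in KO members, and red blood cell genes to 1.0 and 1.2. In MHC II low macrophages the T-cell, NK-cell and B-cell sums were 12.8, 20.4 and 20.3 CPM (control) and 27.2, 230 and 27.7 CPM (KO). Of 4 T-cell markers 1 was at 0 in control members and 3 in KO members, and of 4 NK-cell markers 0 and 2.

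**Figure D3:**
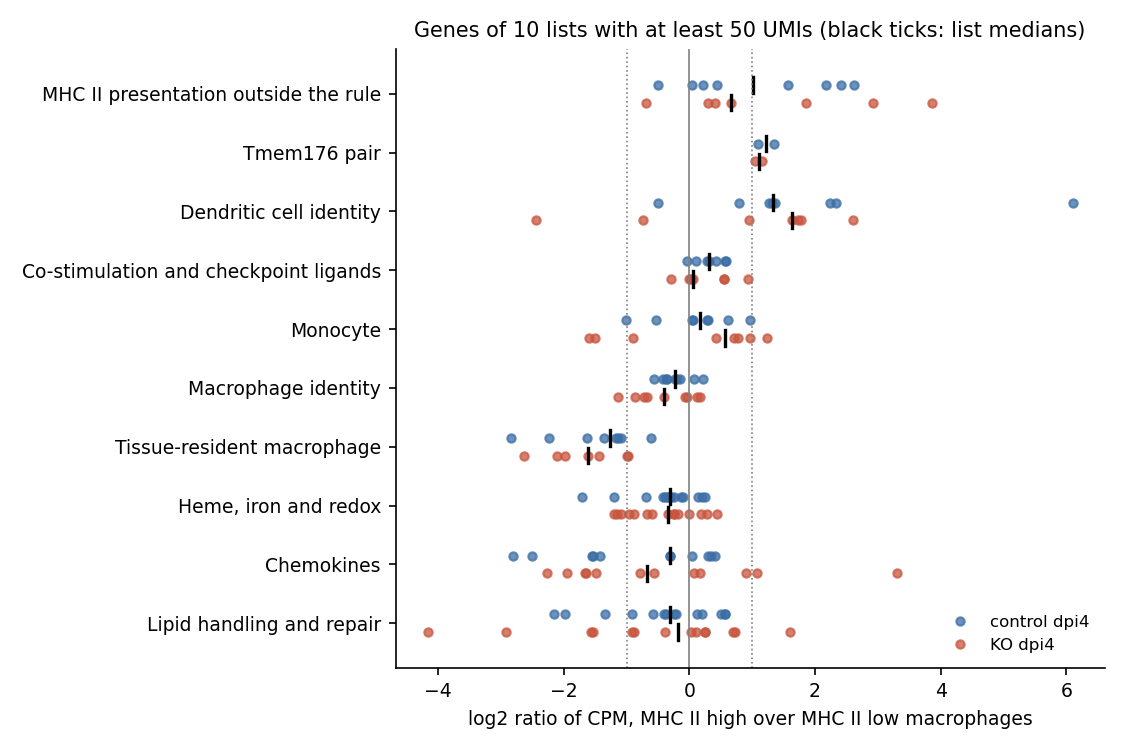
Log2 ratio of members over MHC II low macrophages for the genes of 10 lists with at least 50 UMIs in the pair, in the control (blue) and KO (red) library at dpi4. Each point is a gene, black ticks are medians and dotted lines mark 2-fold. The Tmem176 pair lies beyond 2-fold to the right, the tissue-resident genes lie to the left of 0, and the MHC class II genes outside the rule spread from -0.69 to 3.87.

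The variation of single genes from cell to cell within members was ranked for genes outside the rule, so that Cd74, H2-Aa, H2-Ab1 and H2-Eb1 could not appear. It was ranked after thinning to 2000 UMIs by the variance over the mean, divided by its median in 51 genes of like level, over 4213 genes. By the lower value of both libraries, Apoe, a lipid carrier of macrophages, came first. It had 13.7 times the usual variation in control members and 16.7 times in KO members, with a mean of 59.5 and 32.6 UMIs. Retnla, Malat1, Cxcl2, Il1b, Ccl5, Mmp12, Fth1, Gm42418, Spp1, Ccl4, Lyz1, Crip1, Tmsb4x and Gdf15 followed. In control members alone Retnla stood above Apoe (68.5 times), and in KO members alone Ccl5 did (19.3 times). Cxcl2, a neutrophil attractant, was found in 54.2% and 51.8% of thinned members, and the highest 10% of cells held 49.6% and 51.7% of its UMIs. Il1b was found in 42.2% and 40% of thinned members, with 57.2% and 62.3% of its UMIs in the highest 10% of cells. Before thinning Cxcl2 was found in 73.8% and 62.1% of members and Il1b in 66.8% and 60.1%.

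Among these genes Apoe and Crip1, a small LIM protein, ran opposite to each other. Their correlation over cells was -0.51 in 365 control members and -0.49 in 195 KO members. Crip1 and Tmsb4x, an actin-binding peptide, correlated at 0.36 and 0.33. Both values are descriptions of cells from 1 library each, which share depth and a fixed total of UMIs.

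Ordered by their MHC class II content, members also differed among themselves. Members were cut into 4 bins of like size by that content (92, 92, 92 and 91 control cells, 51, 51, 51 and 50 KO cells), and of 3272 genes outside the rule 7 were higher in the highest than in the lowest bin in both libraries (0.214%) and 23 lower (0.703%). Plbd1 rose from 115 through 179 and 210 to 286 CPM in the control library and from 139 through 252 and 298 to 370.2 in the KO library. Rnase6, a ribonuclease of monocytes, rose from 24.4 to 62.5 CPM and from 16.3 to 75.8, and Plac8 from 74.7 to 257 and from 134 to 325. Plac8 did not climb evenly, with 386 CPM in the second KO bin. Napsa, an aspartic protease, I830077J02Rik, Amz1 and Sirpb1c completed the 7. All of these but Sirpb1c were lower in members as a whole than in dendritic cells. Log2 ratios of members over dendritic cells were -2.45 and -1.64 for Plac8 and -1.40 and -0.98 for I830077J02Rik. Amz1 had -0.84 and -0.23, the latter with an interval that included 0, and Sirpb1c had 0.63 and 0.56.

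The genes that fell along the same order included Gas6 and F13a1 of the tissue-resident list. Gas6 fell from 128 to 30.3 CPM in the control library and from 119 to 23.5 in the KO library. Fn1, fibronectin, fell from 502 to 120.5 CPM and from 265 to 61.4, Igf1, the muscle growth factor, from 323 to 104 and from 358 to 70.4, and Stab1 from 297 to 85.5 and from 230.4 to 68.6. Igfbp4, F13a1, Fcrls and Nrp2 fell by 1.45 to 2.09 on the log2 scale in the control library and by 2.00 to 3.29 in the KO library. Mrc1 was at 424, 497, 346 and 181 CPM over the control bins and 493, 437, 249 and 275 over the KO bins (-1.23 and -0.85), and thus passed 2-fold in the control library only.

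Of the antigen presentation genes outside the rule, H2-DMa and H2-DMb1 passed 2-fold over the bins in the KO library only, and Ciita in neither. Ciita was at 45.1, 52.1, 89.2 and 88.3 CPM over the control bins and 57.2, 67.0, 67.1 and 92.1 over the KO bins (0.97 and 0.69). H2-DMb1 rose from 324 to 596 and from 258 to 724 CPM (0.88 and 1.49). Flt3 was at 5.2, 1.6, 2.6 and 25.7 CPM and 1.6, 3.5, 9.0 and 16.3 CPM, and Dpp4 at 3.7, 5.5, 14.1 and 23.9 and 1.6, 17.6, 14.9 and 50.6, while Mertk went from 110 to 69.0 and from 114 to 45.1. The highest bin thus held the most Flt3 and Dpp4, while Zbtb46 and Ccr7 in control members and Ccr7 and Cd24a in KO members were not highest there, and what part these cells had in the other genes was not tested.

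**Figure D4:**
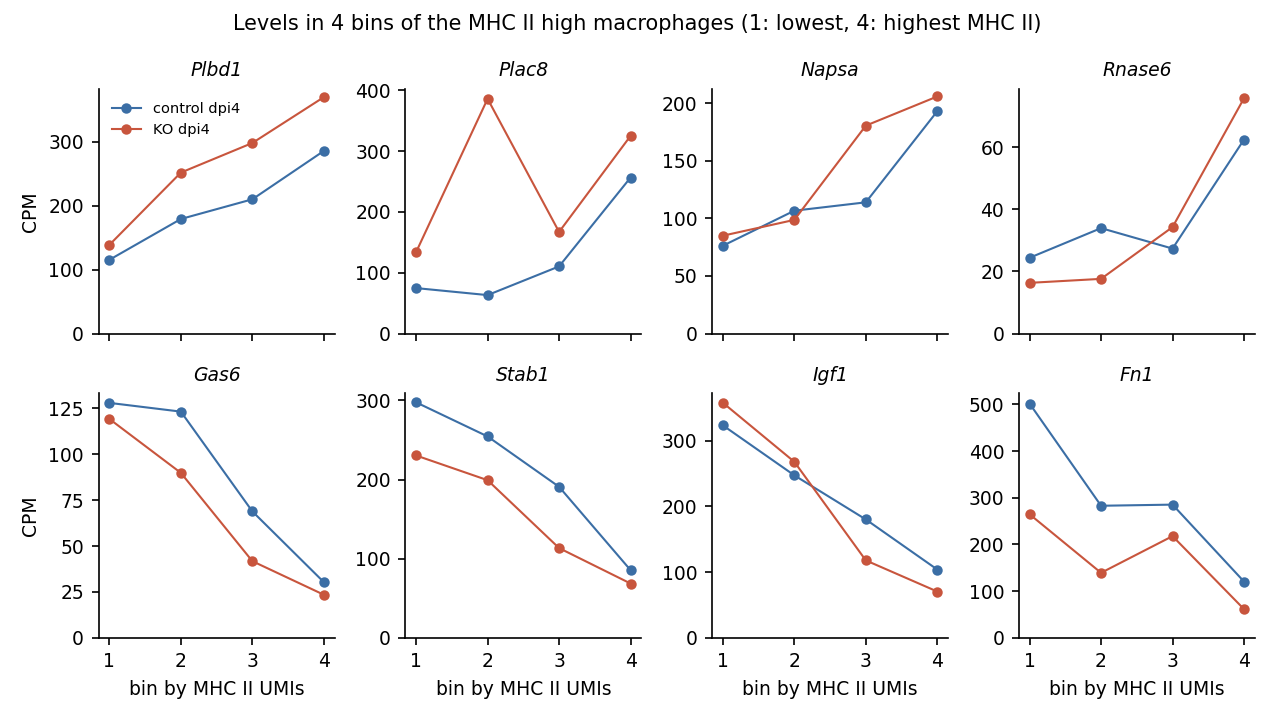
Levels (CPM) over the 4 bins of members ordered by MHC class II content, lowest (1) to highest (4), in the control (blue) and KO (red) library at dpi4, for 4 genes that rose (upper row) and 4 that fell (lower row). Plbd1 and Rnase6 end above where they began, and Gas6, Fn1 and Igf1 end below, in the control and in the KO library.

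Members of the KO library were then compared with those of the control library. Of 8138 genes 90 were higher (1.11%) and 139 lower (1.71%) in KO members, and the median gene stood at 0.07. Lyz2, the gene whose promoter drives the Cre, was at 16943 CPM in control members and 20.8 in KO members (-9.67, -10.1 to -9.27). A Lyz2 UMI was found in 99.7% of thinned control members and 5.13% of KO members, and the ratio was -9.71 in MHC II low macrophages. Bach1 itself was at 234 CPM in control and 216 in KO members (-0.12, -0.27 to 0.03). The counts come from the 3′ ends of transcripts, and the deletion takes out an inner exon, so this value does not check the deletion.

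Heme, iron and redox genes were higher in KO members. All 15 list genes compared were above 0, where 60.2% of all genes were, and 8 passed the size rule, against 1.11% of all genes, with a median of 1.01, and of 1.16 in MHC II low macrophages. Hmox1 was at 193 CPM in control members and 2234 in KO members (3.53, 3.43 to 3.64) and had a ratio of 3.48 in MHC II low macrophages and 3.98 in members at dpi2. It was found in 24.4% of thinned control members (70.0% before thinning) and 68.7% of KO members (94.1% before), and in 3.64% and 24.5% of T and NK cells, whose share is taken as the background. Spic, a transcription factor induced by heme, was at 14.1 and 110 CPM (2.97), and Slc48a1, a heme transporter, at 63.9 and 229 CPM (1.84). Gclm and Gclc, which make glutathione, had 1.57 and 1.31, Fth1, the ferritin heavy chain, had 1.10, and Srxn1 and Vcam1 had 1.30 and 1.01.

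Within that set members rose less than MHC II low macrophages for some genes. The difference of the KO ratio, members minus MHC II low, was 0.05 (-0.06 to 0.16) for Hmox1, -0.85 (-1.34 to -0.36) for Spic and -0.47 (-0.70 to -0.23) for Slc48a1 on the log2 scale. Slc40a1, an iron gene itself, is one of the gates, so cells high in it were left out of both sets.

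The 4 genes of the rule are bounded by the same threshold in KO and control members. Cd74 was at 9775 and 9447 CPM (-0.05), H2-Aa at 6438 and 6966 (0.11), H2-Ab1 at 4913 and 5712 (0.22) and H2-Eb1 at 4206 and 5146 (0.29), values given as a description. Ciita had 0.07 (-0.21 to 0.34), H2-DMb1 0.20 and H2-DMa -0.04, and 0 of 9 list genes outside the rule passed, beside 1.11% of all genes higher and 1.71% lower. In MHC II low macrophages the 4 genes of the rule, which define that set too, stood at -0.43 to -0.51. There Ciita was at 10.8 CPM in the control and 4.8 in the KO library (-1.17, -1.95 to -0.46, on 93 and 20 UMIs), H2-DMb1 had -0.54 and H2-DMa -0.32. Tmem176a and Tmem176b were slightly lower in KO members (-0.50 and -0.27).

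Of 9 MHC class I genes none passed between KO and control members, beside the same shares of all genes. All 9 were above 0, as were 60.2% of all genes compared, with a median of 0.40, and the median in MHC II low macrophages was 0.41. B2m, the light chain of class I, was at 2993 CPM in control and 4076 in KO members (0.45) and H2-K1 at 1482 and 1950 (0.40). Type I interferon genes were also all above 0 (10 of 10, median 0.44), and 1 passed, against 1.11% of all genes higher, Ifi44 at 9.3 and 20.8 CPM. The gate on Iigp1, Ifit2 and Ifit3 limits how high this group can be in either library.

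Other genes higher in KO members were of mixed function. Lyz1, the second lysozyme gene, was at 129 CPM in control and 1217 in KO members (3.23), and at 54.1 and 660 CPM in MHC II low macrophages. The reads of Lyz1 and Lyz2, which are near-identical copies, may be shared in counting. A530032D15Rik was at 3.9 and 30.0 CPM (2.93), Ly6c2 at 46.3 and 231 (2.32) and Kcnj10, a potassium channel, at 3.3 and 15.8 (2.26). E2f2, a cell cycle transcription factor, was at 5.6 and 22.1 CPM (1.98) against 0.08 in MHC II low macrophages, and its ratio was 1.91 (0.94 to 2.87) larger in members. Mmp12, the macrophage elastase, was at 77.7 and 243 CPM (1.64), and Lpl, lipoprotein lipase, at 476 and 1056 (1.15).

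Some of the largest ratios rested on few cells. Ocstamp and Dcstamp, which drive the fusion of macrophages and osteoclasts, were at 5.4 and 24.1 CPM and 6.0 and 24.5 CPM, from 19 and 13 KO members. S100a8 was at 4.3 and 24.5 CPM with 98.3% of the KO UMIs in 1 cell, and Cxcl9 at 7.6 and 45.8 CPM. Of the 90 genes higher in KO members 78 had a UMI in at least 10% of the cells, and 8 of the 12 with the largest ratios did.

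Some of the genes lower in KO members are known from other cell types and some from macrophages, and the 139 were not sorted as a whole. Collagen and stromal genes led the list beside Lyz2, with Col12a1, Col5a2 and Meg3 at 11.8, 37.2 and 35.6 CPM in control members and no UMI in KO members, where 3 UMIs would be 1.25 CPM. Between 88.3% and 98.8% of the control UMIs of these 3 genes lay in 1 cell. Col1a1 was at 169 and 5.4 CPM (-4.97), and 92.8% of the control UMIs lay in 1 cell, while in MHC II low macrophages it was at 94.8 and 93.1 CPM (-0.02), with 30.8% of the control UMIs and 88.6% of the KO UMIs in 1 cell each. Col5a1, Ogn, Igfbp5, Itm2a, Capn6 and C1qtnf3 were also lower, with log2 ratios between -4.50 and -5.53, and for Ogn 86.4% and for Igfbp5 82% of the control UMIs lay in 1 cell. Ogn, Igfbp5, Itm2a, Capn6 and Col12a1 passed as lower in MHC II low macrophages too (-2.95, -1.90, -1.85, -2.45 and -1.16). Muscle genes summed to 144 CPM in control members and 47.8 in KO members, and 4 of 4 compared were lower, against 1.71% of all genes. The fibroblast and endothelial markers summed to 289 and 16.2 CPM, of which Col1a1 gave 169 and 5.4 CPM, so much of the control sum lay in 1 cell. Without cells that hold 5 or more UMIs of the lists of other cell types 79 genes were lower in place of 139.

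Among macrophage transcripts, Slc15a2, a peptide transporter, was at 35.8 CPM in control members and 0.4 in KO members (-6.43), held by 20.2% of control members and 0.493% of KO members before thinning. Its ratio was -4.23 in MHC II low macrophages and -0.47 in members at dpi2. Sepp1, a selenium carrier, was at 3572 and 1485 CPM (-1.27) and Folr2 at 85.2 and 36.6 (-1.22), so that 2 of 7 resident genes were lower, against 1.71% of all genes, none of the 7 was above 0, against 60.2%, and the list median was -0.68 in members and -0.24 in MHC II low macrophages. Apoe was at 28631 and 14737 CPM (-0.96), with -0.49 in MHC II low macrophages. Fcrls, a receptor-like gene of resident macrophages, had -1.26. Of 14 inflammatory genes 2 were lower, again beside 1.71% of all genes, Il6 (14.1 and 6.2 CPM) and Il1a (19.0 and 9.2 CPM), and the list median was -0.12, against -0.49 in MHC II low macrophages. Il1b had -0.10, Tnf 0.31 and Cxcl2 0.03.

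The remaining lists of this comparison gave counts as follows, beside 1.11% of all genes higher and 1.71% lower. Of 7 co-stimulatory ligands, 7 phagocytic receptors, 9 lysosomal genes, 9 macrophage identity genes and 18 transcription factors 0 passed. Of 8 dendritic cell genes 2 were higher (Cd24a and Irf4) and 2 lower (Ccr7 and Fscn1), of 6 monocyte genes 2 were higher (Ly6c2 and Plac8), of 13 lipid genes 3 (Mmp12, Lpl and Cd36) and of 12 chemokines 2 (Ccl5 and Ccl22). Ccl22 rested on 46 UMIs in KO members, 38 of them in 1 cell, against 27 in control members. Ccl5 also leaned on few cells, found after thinning in 3.01% of control and 3.08% of KO members, with up to 9 and 30 UMIs in a cell. Of 10 alternative activation genes 2 were lower, Il10 and Retnla, and 1149 of the 2060 Retnla UMIs of control members lay in 1 cell. Of 8 interferon-gamma genes 1 was higher (Cxcl9), of 9 immediate early and heat shock genes 1 was higher (Hspa1b), and of 3 cell cycle genes 1 was higher (Mcm5).

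**Figure D5:**
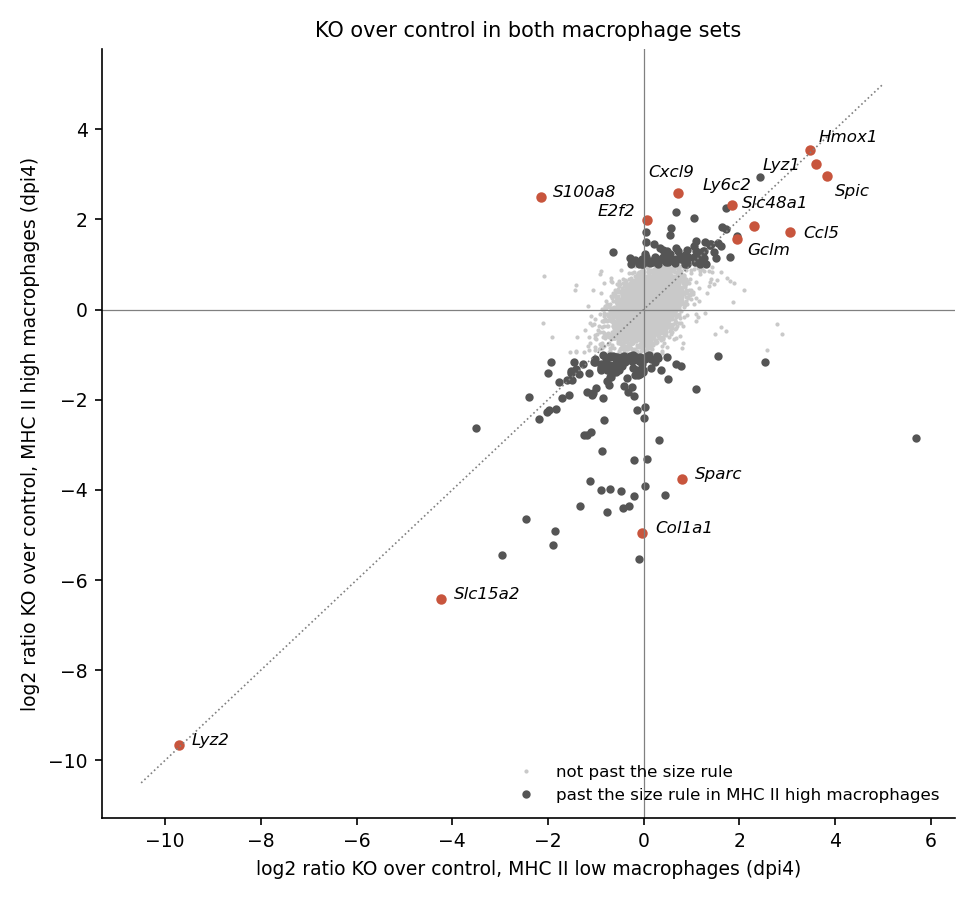
Log2 ratio of KO over control at dpi4 in members (vertical) against the same ratio in MHC II low macrophages (horizontal), 1 point per gene, with dark points past the size rule in members, red points named and genes without a UMI in either group not drawn. The dotted line marks equal ratios. Lyz2 and Hmox1 lie close to it, Spic and Ccl5 below it, and E2f2 and S100a8 above it, at 0.08 and -2.15 on the horizontal axis.

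Members found by the same gates at dpi2 were few, and the levels of Ciita and Tmem176b were lower than at dpi4, a description across days without a test. Ciita was at 23.2 CPM in 46 control members and 22.2 in 62 KO members at dpi2, against 67.0 and 70.3 at dpi4. Tmem176b was at 182 and 108 CPM at dpi2 against 625 and 517 at dpi4, and H2-DMa at 371 and 293 against 554 and 539. H2-DMb1, at 403 and 487 against 424 and 486, was close between the days. Relative to MHC II low macrophages of the same day, Ciita had log2 ratios of 4.43 and 4.65 at dpi2 on 26 and 40 UMIs, below the minimum of 50, and Clec4b1 had 2.39 and 3.21.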

How the data were processed

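The deposited matrices hold raw UMI counts per gene and barcode, which the authors made from 10x 3′ libraries with Cell Ranger 6.1.2 against mm10 (27998 genes), keeping barcodes of at least 500 UMIs. The labels name a v2 kit and the study's methods v3.1, and which was used was not settled. The authors' later steps (miQC, scDblFinder, Harmony, SingleR) are in no file used here, so cells were chosen by gates. Members and gene lists were chosen with earlier results of these data known.

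Counts were summed over the cells of each set and library and divided by the sum (CPM). With 1 library per group no test was made: CPM have exact Poisson, ratios exact conditional binomial, shares Clopper-Pearson and share differences Newcombe intervals, all 95% and for counting error only. A gene passed at 2-fold, with an interval without 1 and at least 50 UMIs in the pair, and the 15 genes of the rule were left out. Named were list genes (251 of 252 matched, in 28 lists), the 15 highest and 10 lowest ratios shared by both libraries, the 12 highest and 12 lowest KO ratios, 15 variable genes and 8 each way over bins of MHC class II content. An item that this rule names is not reported here. Other genes named were chosen after their values were seen, from those held by at least 10% of cells. Cells were thinned to 2000 UMIs for shares and variation, leaving out 2 and 8 shallower members, 33 and 19 MHC II low macrophages and 3 and 1 T and NK cells. No doublets were removed in the main analysis, and a co-expression score was tried as an alternative. The size rule was tested on simulated data. Python 3.11.15, numpy 2.4.6, scipy 1.17.1, pandas 2.3.3 and matplotlib 3.10.9 were used, and TMM factors came from edgeR 4.0.16 in R 4.3.3.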

Additional observations from a re-analysis of the deposited data

Results flagged for a closer look

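Results were listed where KO and control members differed in opposite directions on the 2 days. Each group was 1 library, so whether the days differ was not tested. The share of members among C1q macrophages differed by -2.90 points (-4.27 to -1.51) at dpi4 and by 3.28 points (1.89 to 4.83) at dpi2. Of 54 list or named genes past the size rule at dpi4, 9 had the opposite sign at dpi2 with an interval without 0, where only 46 control and 62 KO members were found.

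The monocyte genes Ly6c2 and Plac8 had log2 ratios of 2.32 and 1.03 at dpi4 and -0.95 and -1.96 at dpi2. Mmp12, a protease, had 1.64 and -1.98, the chemokine Ccl5 1.72 and -1.59, and the heat shock gene Hspa1b 1.10 and -2.89. In the other direction, Sepp1 had -1.27 at dpi4 and 1.08 at dpi2, and the cytokine genes Il1a, Il6 and Il10 had -1.06 and 2.97, -1.17 and 3.68, and -1.09 and 0.96. Il6 rested on 14 control and 9 KO members at dpi4. The dpi2 intervals were wide for Il6 (1.09 to 9.04), Il1a (1.34 to 5.29) and Mmp12 (-4.20 to -0.006). The dpi2 ratios of these genes are therefore known in sign more than in size.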

How the results depend on the processing

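Each group was 1 library, so no replicate could be left out, and ratios of members over MHC II low macrophages were taken within each library with no fit across libraries. Neither the share difference nor the medians of the MHC class II genes changed sign under any alternative run, and shares and counts of genes cannot. The interval of the share difference included 0 under 5% mitochondrial UMIs and among members plus MHC II low macrophages. Under the settings listed at the outset 44 values kept within limits and 47 moved, and under those added after seeing the data 8 kept and 7 moved. The limits were 1.5 times for counts of genes and the 95% counting interval for shares and differences. For medians they were the medians of the single genes' lower and upper limits, which leave out the spread among genes. The widths of these limits differ. The cause of each move was not tested beyond what the setting itself removes. Depth limits the sets: 203 KO members held 2403560 UMIs, so many genes stayed under 50 UMIs.

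The control and KO shares (10.0% and 7.13%) were 13.04% and 8.61% with the MHC class II gate at 50, 5.85% and 4.22% at 200, 21.2% and 13.4% without the gates on other states, and 35.6% and 34.9% of members plus MHC II low macrophages. The KO share was 8.19% without the Slc40a1 gate and 10.2% under 5% mitochondrial UMIs. The difference (-2.90 points) was -4.43 at 50, -1.63 at 200, -1.87 without the Slc40a1 gate, -7.85 without the state gates, -0.83 under 5% mitochondrial UMIs and -0.68 of members plus MHC II low macrophages.

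Genes higher in members in both libraries (36) numbered 115 without the state gates, 23 under 5% mitochondrial UMIs, 91 at 1.5-fold, 15 at 200 UMIs, 76 with no minimum and 13 after thinning. Genes lower (111) numbered 189 with the gate at 200, 192 without the state gates, 26 under 5% mitochondrial UMIs, 62 without cells holding Flt3 or Zbtb46, 287 at 1.5-fold, 32 at 200 UMIs, 299 with no minimum, 23 after thinning, 44 held by at least 10% of cells and 60 without cells holding other types' UMIs. Genes higher in KO members (90) numbered 435 at 1.5-fold, 23 at 200 UMIs, 214 with no minimum and 46 after thinning. Genes lower in KO members (139) numbered 72 with the gate at 200, 285 at 1.5-fold, 26 at 200 UMIs, 357 with no minimum, 31 after thinning, 89 held by at least 10% of cells and 79 without cells holding other types' UMIs.

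The median log2 ratio of the MHC class II genes outside the rule was, in the control library (1.01), 1.12 with the gate at 50, 0.90 at 200, 1.82 without the state gates, 0.44 at 200 UMIs, 1.78 with no minimum, 1.12 with TMM and 0.50 after thinning. In the KO library (0.67) it was 1.31 without the Slc40a1 gate, 2.25 without the state gates, 0.54 at 200 UMIs, 1.86 with no minimum, 0.78 with TMM and 0.80 after thinning.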

Other observations

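All 3 of Ccl8, Clec10a and C4b were found in 6 control members (1.63%) and 3 KO members (1.48%), against 7.07% and 2.90% of MHC II low macrophages. At least 10 UMIs of skeletal muscle genes were found in 18 control members (4.90%) and 1 KO member (0.493%), against 2.71% and 0% of MHC II low macrophages. Among the most variable genes, Fth1 and Gdf15, a stress cytokine, correlated at 0.24 over 365 control members and 0.23 over 195 KO members, cells of 1 library each.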
